A study of Rattus norvegicus with 32 samples.

Results

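The transcripts described here encode 6 secreted glycoproteins of the extracellular matrix. Spp1, Fn1, Tnc, Sparc, Vtn and Lamb1 were chosen by name among the 23822 genes of the deposited tables, as matricellular or basement membrane components with opposite directions of change in one tissue. They were measured in the hippocampus of the R237H rat model of Alexander disease, a neurodegenerative disorder of astrocytes caused by mutations in glial fibrillary acidic protein. R237H rats are heterozygous knock-ins (Gfap+/R237H) that carry a missense mutation in every cell of the body, and their WT littermates (Gfap+/+) are the controls, all on the Crl:CD(SD) Sprague Dawley background. Hippocampi of 32 rats, 17 R237H and 15 WT, were collected at P21 or P56 and sequenced one library per rat after polyA selection. Each sex had 4 R237H and 4 WT rats at P56, males had 4 and 4 at P21, and the labels give 5 R237H and 3 WT females at P21. Sample titles have a different form at P21 and at P56, and the labels do not say whether the ages were collected together. An effect of age and one of collection therefore cannot be told apart.

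Matricellular proteins are secreted into the matrix but act mainly on cells, through integrins and other receptors, rather than as scaffold. They are abundant in developing tissue, fall to low levels in most adult tissue and return at sites of injury. Basement membranes are thin sheets built on laminin heterotrimers, and in the brain they line the vessels and the pial surface, where astrocyte endfeet attach.

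Spp1 encodes osteopontin, a phosphoprotein ligand of Cd44 and of several integrins that is typical of activated microglia and macrophages. Fn1 encodes fibronectin, the ligand of the alpha 5 beta 1 integrin, which cells assemble into fibrils. Tnc encodes tenascin-C, a multi-armed glycoprotein of the developing and injured brain that reactive astrocytes can produce. Sparc encodes osteonectin, a collagen-binding modulator of cell adhesion made by several glial and vascular cell types. Vtn encodes vitronectin, an adhesive integrin ligand of plasma and matrix that pericytes express in the brain. Lamb1 encodes the beta 1 chain of laminin.

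Libraries held 21580397 to 55544871 expected counts on genes (median 46157271), and 2 R237H male libraries, replicate 4 at P56 and replicate 3 at P21, were under 30000000. Gfap, the mutated gene, averaged 5549 ± 1141 normalized CPM, counts scaled by library size, in R237H males and 784 ± 217 in WT males at P56 (mean ± SD, n = 4 each), and no R237H rat overlapped a WT rat of its sex and age. Ttr, a transcript of the choroid plexus, exceeded 100 TPM, a level per transcript length, in 6 libraries. These were R237H replicate 4 of each sex at P56, WT male replicate 2 at P56, and, at P21, WT male replicate 1, R237H female replicate 2 and WT female replicate 3. The hippocampal markers Prox1, Neurod6 and Wfs1, 3 of 5 listed, together reached 254 to 942 normalized CPM in every rat. In males at P56 they summed to 254 to 388 in R237H rats and 560 to 942 in WT rats. Neurod6 and Wfs1 were decreased there at an FDR under 0.01. In females of that age the sums overlapped (257 to 510 and 466 to 698), and no marker passed.

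The sequence just before the transcription start is shown for 5 of the members because 4 of the 6 rose together and a pair fell, and a reader may want to compare what lies there. The windows are the 250 bases before the RefSeq start on GRCr8, printed 5′ to 3′ on the strand of the gene, and capitals mark matches to 8 short motifs searched on both strands. Positions are counted back from the start, with 1 the last base before it. Spp1 lies on the minus strand at chr14:5619805-5620054, Tnc on the minus strand at chr5:82476132-82476381, Sparc on the minus strand at chr10:40038817-40039066, Vtn on the plus strand at chr10:63892532-63892781 and Lamb1 on the plus strand at chr6:53562846-53563095. Fn1 had no window among the sequences used here.
Spp1: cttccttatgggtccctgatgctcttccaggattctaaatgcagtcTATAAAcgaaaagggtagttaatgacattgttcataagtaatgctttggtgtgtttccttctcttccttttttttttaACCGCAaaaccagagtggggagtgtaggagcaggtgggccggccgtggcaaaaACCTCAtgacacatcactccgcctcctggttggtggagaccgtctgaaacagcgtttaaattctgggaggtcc
Tnc: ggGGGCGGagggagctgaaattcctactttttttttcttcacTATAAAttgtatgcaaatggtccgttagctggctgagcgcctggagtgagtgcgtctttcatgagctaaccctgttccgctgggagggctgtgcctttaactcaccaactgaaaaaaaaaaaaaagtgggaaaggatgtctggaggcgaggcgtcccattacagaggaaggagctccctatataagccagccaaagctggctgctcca
Sparc: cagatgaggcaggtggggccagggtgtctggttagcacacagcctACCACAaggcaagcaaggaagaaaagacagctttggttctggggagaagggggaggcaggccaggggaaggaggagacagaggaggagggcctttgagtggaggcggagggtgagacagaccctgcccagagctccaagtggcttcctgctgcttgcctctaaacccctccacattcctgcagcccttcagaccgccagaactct
Vtn: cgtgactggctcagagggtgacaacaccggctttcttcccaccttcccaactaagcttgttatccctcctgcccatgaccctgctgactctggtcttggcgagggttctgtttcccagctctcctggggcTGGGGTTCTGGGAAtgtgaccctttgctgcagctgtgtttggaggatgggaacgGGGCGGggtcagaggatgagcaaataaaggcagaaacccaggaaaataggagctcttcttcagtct
Lamb1: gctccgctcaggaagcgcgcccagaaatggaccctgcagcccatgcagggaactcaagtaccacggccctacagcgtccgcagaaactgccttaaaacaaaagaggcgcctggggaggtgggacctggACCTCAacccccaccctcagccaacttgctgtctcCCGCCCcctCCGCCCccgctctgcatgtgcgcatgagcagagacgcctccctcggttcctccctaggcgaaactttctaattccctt

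No match to the NF-kB consensus, the AP-1 motif TGANTCA, the CRE TGACGTCA or the CCAAT box was present in any of the 5 windows, and these motifs occurred in 6.33%, 6.34%, 1.59% and 34% of all 33469 rat windows of this length. The absence says only that these letters are not in these windows. The STAT motif TTCNNNGAA, present in 7.67% of all windows, was matched in Vtn alone, from 115 to 107. The RUNX motif TGNGGT, present in 41% of all windows, was matched in Spp1 from 126 to 121 and from 73 to 68, in Sparc from 205 to 200, in Vtn from 120 to 115, where it shares 1 base with the STAT match, and in Lamb1 from 122 to 117. GC boxes, GGGCGG, were matched in Tnc, Vtn and at 2 places in Lamb1 (30.5% of all windows). The TATA box letters TATAAA (12.9%) were matched in Spp1 from 204 to 199 and in Tnc from 208 to 203. None of the 8 motifs was present in all windows of the rising members and absent from those of the falling ones, or the reverse. The GC content of the windows was 46.8% for Spp1, 49.6% for Tnc, 55.6% for Vtn, 60% for Sparc and 62% for Lamb1, against a median of 51.2% over all windows. A match of letters is a description and not a binding site.

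In R237H males at P56, Spp1, Fn1, Tnc and Sparc were increased and Vtn and Lamb1 were decreased, and the same directions passed the test in females of that age. A gene was called increased or decreased at an FDR under 0.01 in edgeR's quasi-likelihood test over all genes tested. In males at P56, 16.8% of the genes tested were increased and 11.1% decreased, and in females at P56 17% were increased and 11.1% decreased. At P21 the same 4 members were increased in males, where 12.4% of genes were increased and 4.82% decreased, and Lamb1 was decreased. In females at P21, where 7.06% of genes were increased and 0.753% decreased, Spp1, Fn1 and Tnc were increased and no member was decreased. All values below are CPM normalized over the 32 rats, which compare rats within a gene, and rats are listed in replicate order. In whole tissue, fewer cells of a type and less RNA per cell cannot be told apart.

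**Figure D1:**
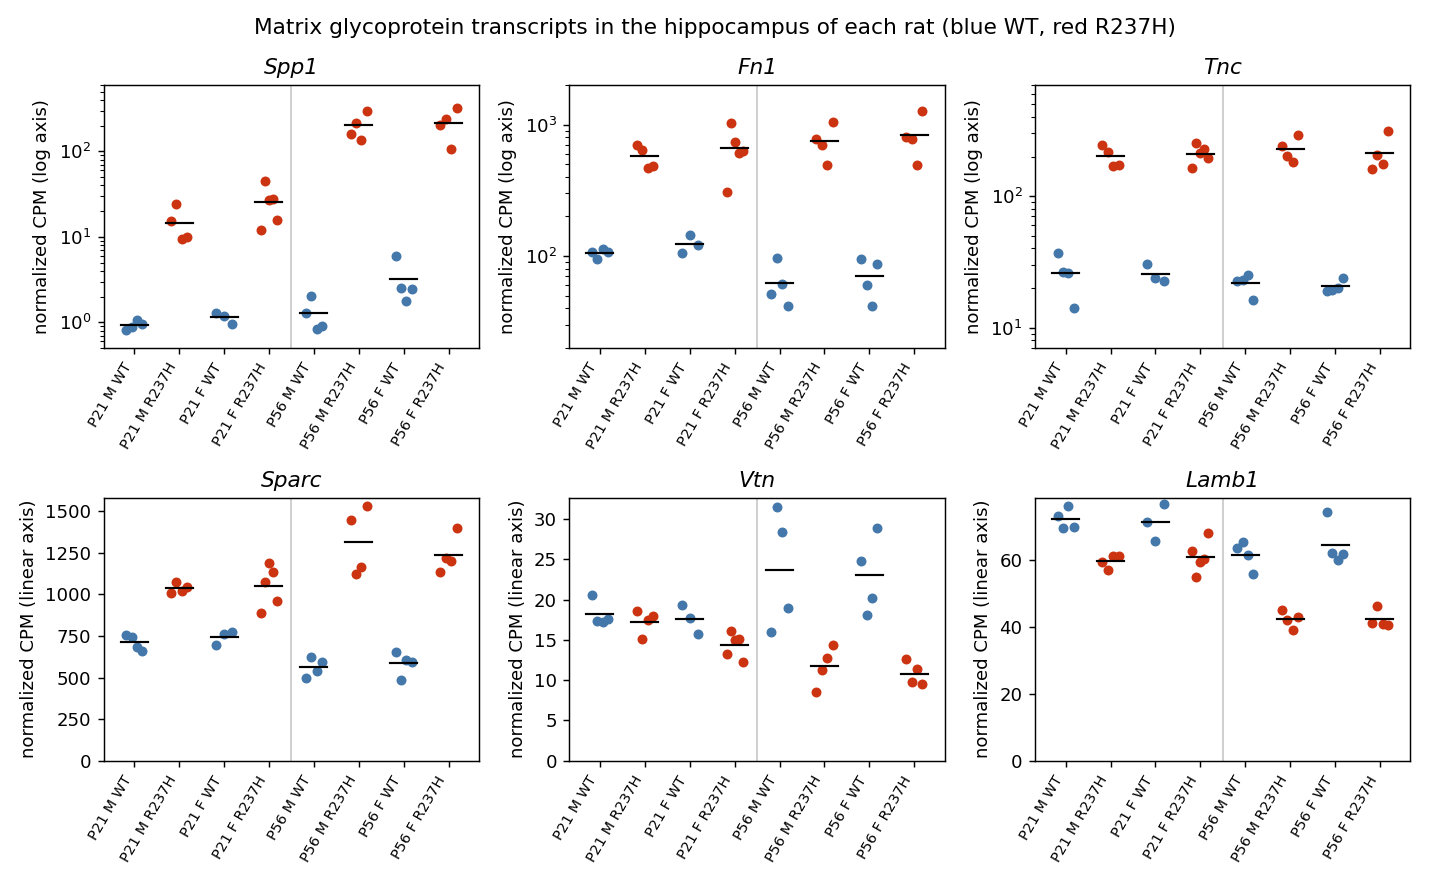
Normalized CPM of each member in each rat (points, blue WT and red R237H) with the group mean (line), by age, sex (M, F) and genotype, on log axes for Spp1, Fn1 and Tnc and on linear axes from 0 for Sparc, Vtn and Lamb1. R237H rats lie above all WT rats of their sex and age for Spp1, Fn1, Tnc and Sparc, and below them at P56 for Vtn and Lamb1.

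Osteopontin mRNA had the largest change of the 6. At P56, Spp1 was 161, 213, 136 and 295 in R237H males and 1.3, 2.06, 0.827 and 0.913 in WT males. R237H females of that age had 201, 242, 108 and 319, and WT females 6.04, 2.49, 1.79 and 2.47. Every R237H rat was far above every WT rat, and the highest WT value was that of a single female. Spp1 was raised by 7.30 ± 0.37 on the log2 scale in males (± SE, a 158-fold difference, edgeR FDR = 9.96e-07) and by 6.07 ± 0.46 in females (67.3-fold, FDR = 4.13e-06), and it ranked 8 of 15097 genes by fold change in males.

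At P21 the level was already raised but far lower than at P56. R237H males had 15.2, 23.9, 9.51 and 10.1 and WT males 0.820, 0.878, 1.06 and 0.967. R237H females had 11.98, 45.6, 26.7, 27.6 and 15.7 and WT females 1.28, 1.19 and 0.946. The genotypes did not overlap in either sex, and the 5 R237H females were spread most widely. The log2 fold change was 3.99 ± 0.30 in males (FDR = 1.23e-06) and 4.49 ± 0.47 in females (FDR = 1.23e-04). WT transcripts rested on 33 to 262 counts per library at either age, so WT levels carry more counting error than those of R237H rats, which rested on 205 to 16602.

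Fibronectin mRNA rose by the same order in the sexes. At P56, Fn1 was 777, 703, 490.1 and 1052 in R237H males and 51.1, 96.4, 60.9 and 41.5 in WT males. R237H females had 804, 770.3, 492 and 1258, and WT females 94.6, 60.4, 41.9 and 86.4. The lowest R237H rat was several times above the highest WT rat. The increase was 3.62 ± 0.32 (log2, 12.3-fold, FDR = 1.75e-05) in males and 3.54 ± 0.33 (11.6-fold, FDR = 1.63e-05) in females.

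At P21, Fn1 was 703, 635, 470.5 and 481 in R237H males and 107, 95.3, 113 and 108 in WT males. R237H females ranged from 305 to 1036 with a median of 628, and WT females had 105, 144 and 122. The genotypes were again apart in both sexes, and WT rats of this age held the higher WT levels. The log2 fold change was 2.44 ± 0.13 in males (FDR = 5.25e-08) and 2.44 ± 0.33 in females (FDR = 6.38e-04).

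Tenascin-C mRNA was raised to a similar level at both ages. At P56, Tnc was 239, 200.2, 182 and 292 in R237H males against 22.8, 23.0, 25.3 and 16.2 in WT males. In females it was 159.9, 205, 175 and 314 against 19.1, 19.4, 20.1 and 23.7. The WT rats of both sexes kept within a narrow band and no R237H rat came near it. Fold changes were 10.6 in males (log2 3.41 ± 0.19, FDR = 1.34e-06) and 10.3 in females (log2 3.36 ± 0.21, FDR = 1.23e-06).

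At P21, Tnc was 246, 217, 169.7 and 172 in R237H males and 36.8, 26.5, 26.1 and 14.1 in WT males. R237H females ranged from 163 to 252 (median 212), and WT females had 30.2, 23.9 and 22.7. The lowest R237H rat was above the highest WT rat in both sexes. The log2 fold change was 2.97 ± 0.24 in males (FDR = 1.80e-06) and 3.04 ± 0.17 in females (FDR = 3.17e-06).

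Sparc was abundant in all rats and changed least of the 4 that rose. At P56 it was 1448, 1120.2, 1167 and 1529.5 in R237H males and 498, 627, 538 and 593 in WT males. R237H females had 1136, 1218, 1199.9 and 1399, and WT females 651, 485, 609 and 595. The genotypes did not overlap in either sex. Sparc was increased 2.37-fold in males (log2 1.25 ± 0.13, FDR = 5.57e-05) and 2.10-fold in females (log2 1.07 ± 0.11, FDR = 3.99e-05).

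At P21 Sparc was 1011, 1077, 1019 and 1044 in R237H males and 755, 747, 684 and 662 in WT males. In R237H females it ranged from 887 to 1189 (median 1073), and WT females had 698, 764 and 776. The ranges were apart in both sexes. The increase of 0.55 ± 0.06 (log2) passed in males (FDR = 1.60e-05), and the 0.50 ± 0.11 in females did not (FDR = 0.0113). For the P21 females, edgeR's likelihood-ratio test (FDR = 0.00101), DESeq2 (FDR = 0.00102) and a model of all 32 rats (FDR = 0.00124) each called it. In edgeR, RLE scaling (FDR = 0.014), other count filters (0.0119 and 0.0121) and a block by title number (0.0585) did not. Nor did limma on log2 TPM (FDR = 0.112 and 0.116) or edgeR without the libraries over 100 TPM of Ttr (0.0559). The call was made in 2 of 8 fits that each left out 1 rat, with FDR from 0.00399 to 0.0738.

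Vitronectin mRNA was decreased at P56. In males, Vtn was 8.56, 11.2, 12.8 and 14.4 in R237H rats and 16.02, 31.5, 28.4 and 19.0 in WT rats. In females it was 12.6, 9.83, 11.4 and 9.51 against 24.8, 18.1, 20.2 and 28.9. All R237H rats lay below all WT rats of their sex, but WT males spread widely and the lowest of them was close to the R237H range. The log2 fold change was -0.996 ± 0.24 in males (FDR = 0.0079) and -1.10 ± 0.16 in females (FDR = 4.31e-04). The call in males held in 2 of 8 fits that each left out 1 rat, with FDR from 0.00434 to 0.0257. It was lost without R237H replicates 1, 2, 3 or 4 and without WT replicates 2 or 3. The call in females held in all 8 such fits.

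At P21 Vtn was 18.6, 15.1, 17.4 and 17.9 in R237H males and 20.6, 17.4, 17.3 and 17.6 in WT males, and these ranges overlapped. R237H females had 13.3, 16.1, 15.1, 15.1 and 12.3 and WT females 19.3, 17.8 and 15.7, with 1 R237H rat above the lowest WT rat. The estimates of -0.07 ± 0.09 (log2, FDR = 0.569) and -0.28 ± 0.13 (FDR = 0.196) did not pass.

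Laminin beta 1 mRNA was decreased in both sexes at P56 and in males at P21. At P56, Lamb1 was 45.0, 42.1, 39.0 and 43.1 in R237H males and 63.6, 65.6, 61.6 and 55.8 in WT males. In females it was 41.3, 46.5, 40.8 and 40.7 against 74.5, 62.2, 60.02 and 62.0. R237H rats were below all WT rats in both sexes. The log2 fold change was -0.52 ± 0.09 in males (FDR = 0.00125) and -0.62 ± 0.10 in females (FDR = 4.94e-04).

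At P21 Lamb1 was 59.6, 57.1, 61.4 and 61.3 in R237H males and 73.4, 69.8, 76.2 and 69.9 in WT males, with no overlap. In females the values were 62.7, 54.9, 59.4, 60.4 and 68.3 against 71.6, 65.8 and 76.9, and 1 R237H rat lay within the WT range. The log2 fold change of -0.27 ± 0.05 passed in males (FDR = 0.00215) and that of -0.21 ± 0.09 did not in females (FDR = 0.159). The male call was lost without WT replicate 3 (FDR = 0.0101) and in a model of all 32 rats (FDR = 0.0111).

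**Figure D2:**
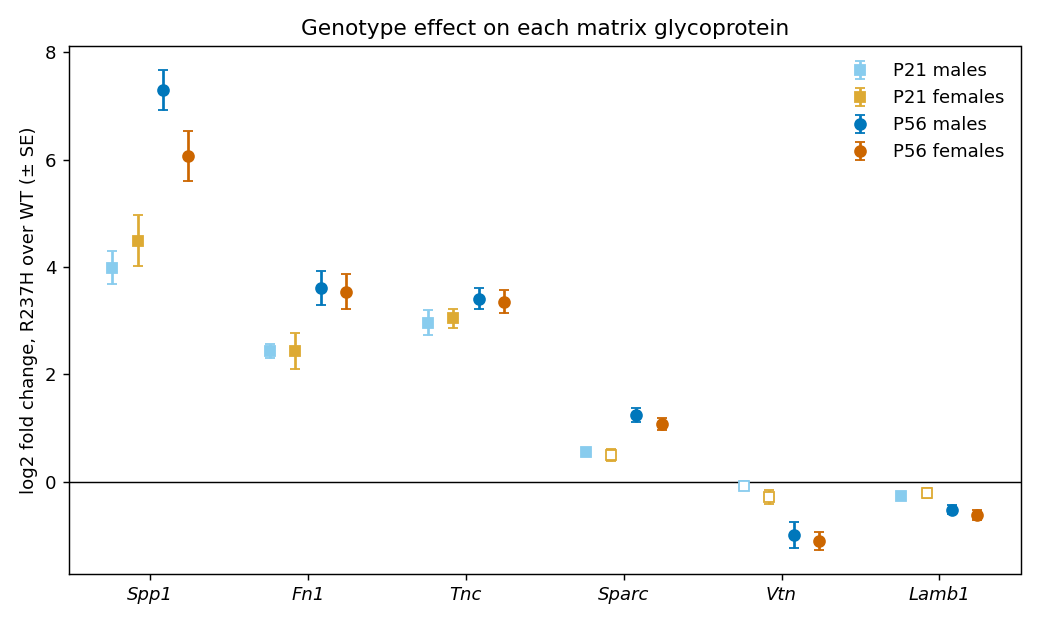
Log2 fold change of R237H over WT (± SE, edgeR) for each member in the 4 comparisons of sex and age, with filled symbols at an FDR under 0.01 and open symbols above it. Estimates fall from 7.30 for Spp1 in males at P56 to -1.10 for Vtn in females at P56, and the P56 estimates are farther from 0 than the P21 estimates of the same sex for all 6 genes.

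Over all genes, R237H rats lay entirely above WT rats for 23% of those tested in males at P56 and 22.6% in females, and entirely below for 19% and 18.1%. At P21 the shares were 16.9% and 14.1% above, and 13.7% and 7.37% below. Groups that do not overlap were therefore common. By the size of the fold change in males at P56, Fn1 ranked 205, Tnc 240 and Sparc 1528 of 15097 genes from the top. Vtn ranked 571 and Lamb1 2317 from the bottom.

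The calls of Vtn in males and of Lamb1 in both sexes at P56 were lost when limma was run on log2 TPM in place of edgeR on counts, an alternative that changes the test and the scale together, and were kept in edgeR with RLE in place of TMM scaling. On the TPM scale, the median of all genes tested was shifted by 0.40 (log2, with 0.1 TPM added) toward R237H in males and by 0.26 in females, against -0.01 and -0.03 with the TMM scaling used for CPM. The TPM estimates were -0.56 for Vtn and -0.12 for Lamb1 in males (FDR = 0.0895 and 0.645) and -0.32 for Lamb1 in females (FDR = 0.104). Each of these estimates lay below the median of all genes on its own scale, and Vtn in females at P56 passed in both. The increases of Spp1, Fn1, Tnc and Sparc at P56 passed in both as well.

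TPM values are per transcript length and so allow levels to be ordered between genes. In WT males at P56, Sparc stood highest at 447 ± 108 TPM (n = 4), followed by Vtn at 23.5 ± 9.2, Lamb1 at 15.8 ± 3.8, Fn1 at 11.4 ± 6.0, Tnc at 4.57 ± 1.04 and Spp1 at 1.46 ± 0.88. Vtn and Lamb1, and Lamb1 and Fn1, overlapped between rats, and the other neighbours in this order did not. In R237H males the order was Sparc at 1378 ± 230 TPM, Spp1 at 290.3 ± 101.2, Fn1 at 177 ± 55, Tnc at 69.7 ± 14.1, Vtn at 15.5 ± 3.1 and Lamb1 at 14.2 ± 1.2. Spp1 thus moved from the last place to the second, where it overlapped with Fn1, and Vtn, which overlapped with Lamb1, moved from the second to the fifth. Females at P56 had the same order in each genotype, except that Spp1 and Tnc also overlapped in WT rats.

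At P21 Sparc again led the WT males at 639 ± 34 TPM. Fn1, Lamb1 and Vtn lay together at 21.3 ± 1.7, 20.9 ± 1.0 and 20.6 ± 1.7 TPM, with overlap between neighbours, above Tnc at 5.97 ± 2.06 and Spp1 at 1.16 ± 0.14. In R237H males Sparc was also highest, at 934 ± 56 TPM. Fn1 at 115 ± 22 TPM and Tnc at 49.6 ± 8.6 came next, without overlap with the members below them. Vtn at 19.6 ± 1.3, Spp1 at 18.3 ± 8.8 and Lamb1 at 17.2 ± 0.7 could not be ordered beyond their spread. Spp1 was thus among the lower members at this age also in R237H males. In R237H females it ranked 4 at 30.0 ± 13.2 TPM (n = 5) and overlapped with Tnc above it and Lamb1 below it.

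**Figure D3:**
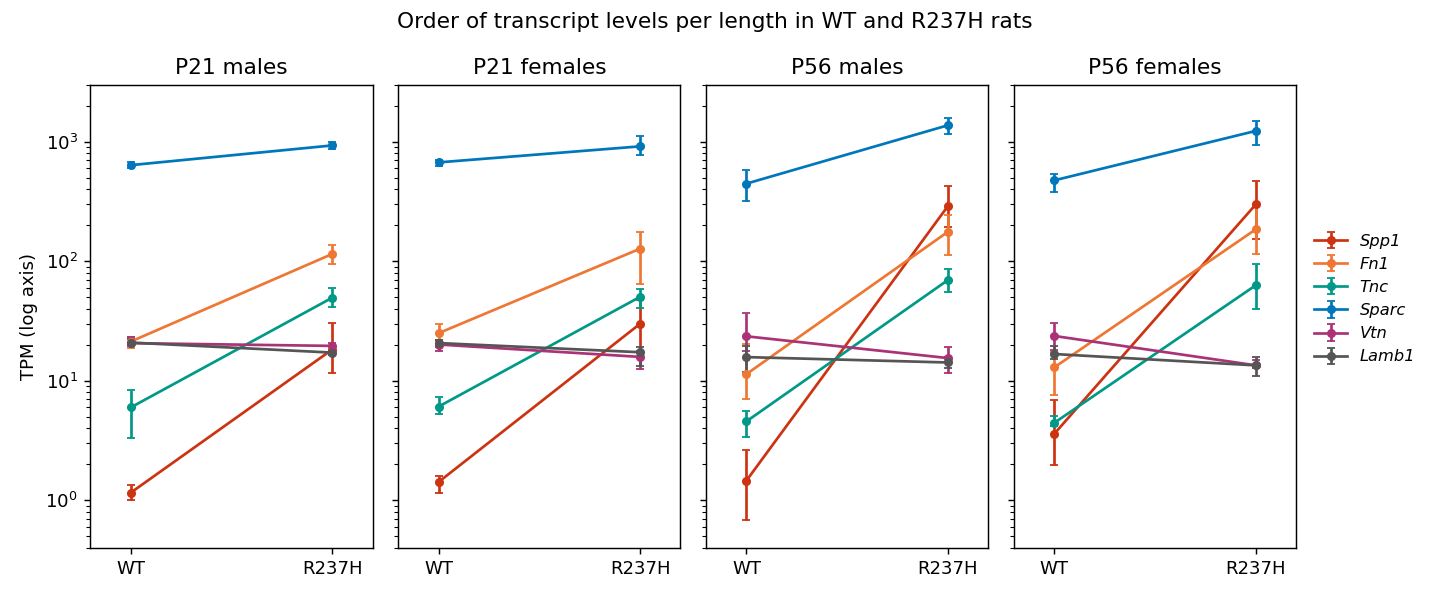
Mean TPM of each member in WT and R237H rats of each sex and age on a log axis, with bars from the lowest to the highest rat. Sparc is highest in every group, and Spp1 crosses from the lowest mean in WT to the second highest in R237H rats at P56 (290.3 TPM in males).

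Levels at the ages are given side by side, since the ages may have been collected apart. The Spp1 mean was 13.7 times as high at P56 as at P21 in R237H males and 8.52 times in R237H females, and 1.37 and 2.81 times in WT rats. The Fn1 means differed in direction between genotypes. The Fn1 mean at P56 was 0.590 times that at P21 in WT males and 1.32 times in R237H males, and 0.574 and 1.25 times in females. Rats of the ages overlapped for Fn1 in all sets but WT females. Sparc was 0.792 times as high at P56 in WT males and 1.27 times in R237H males. The Vtn means ran the other way, at 1.304 times in WT males and 0.679 times in R237H males, and 1.31 and 0.754 times in females. Rats of the ages overlapped for Vtn in all sets but R237H males. Lamb1 was lower at P56 in both genotypes, at 0.853 times in WT and 0.707 times in R237H males. Tnc was between 0.804 and 1.13 times in all 4 sets of rats.

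The difference of the genotype effects between ages was tested within each sex. In males, 10.1% of genes had an interaction of age and genotype, and Spp1 (log2 difference 3.29 ± 0.51, FDR = 3.78e-04) and Sparc (0.68 ± 0.14, FDR = 0.00289) were among them, both larger at P56. Fn1 (1.16 ± 0.33, FDR = 0.0196), Vtn (-0.94 ± 0.26, FDR = 0.0182), Lamb1 (-0.27 ± 0.09, FDR = 0.0489) and Tnc (0.43 ± 0.32, FDR = 0.362) did not pass. In females, 2.15% of genes had such an interaction and none of the 6 did. The female estimates had the same signs as in males, with Vtn at -0.81 ± 0.21 (FDR = 0.0272), Sparc at 0.57 ± 0.15 (FDR = 0.0305), Lamb1 at -0.41 ± 0.13 (FDR = 0.0665), Spp1 at 1.59 ± 0.66 (FDR = 0.161), Fn1 at 1.11 ± 0.46 (FDR = 0.162) and Tnc at 0.32 ± 0.26 (FDR = 0.52).

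No difference of the genotype effects between sexes was called for any member. Interactions of sex and genotype were called for 0% of genes at P56 and 0% at P21 by edgeR's quasi-likelihood test and also by its likelihood-ratio test, while 310 of 15419 and 458 of 15361 genes had an unadjusted p under 0.05. The Spp1 estimate at P56 was -1.19 ± 0.57 (log2, females minus males, unadjusted p = 0.0511, edgeR FDR = 0.999), next to WT levels that averaged 3.20 ± 1.92 CPM in females and 1.27 ± 0.56 in males. The other estimates at P56 were between -0.15 and -0.02. At P21 all males share the same number in their sample titles, and no female of that age carries it. A difference between the sexes and one that goes with that number cannot be told apart there.

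The rats that were highest for one rising member were often highest for the others. R237H replicate 4 of each sex at P56 had the highest Spp1, Fn1, Tnc and Sparc of its group, and replicate 3 had the lowest Spp1 and Fn1 in both sexes. At P21, R237H female replicate 2 had the highest Spp1, Fn1 and Tnc and replicate 1 the lowest of these and of Sparc. The highest rat in each of these 3 groups was also a library with Ttr over 100 TPM. Among the WT libraries over that level, male replicate 2 at P56 was highest of its group for every member except Tnc. WT male replicate 1 at P21 was highest for Tnc, Sparc and Vtn and lowest for Spp1. WT female replicate 3 at P21 was highest for Sparc and Lamb1 and lowest for Spp1, Tnc and Vtn. Without the 6 libraries over that level, an alternative chosen after seeing the data, the increased members numbered 4 in both sexes at P56, 4 in P21 males and 3 in P21 females. Spp1 was then 7.40 ± 0.27 in males and 5.83 ± 0.43 in females at P56 (log2), and 3.94 ± 0.35 and 4.05 ± 0.43 at P21. Vtn (-0.93 ± 0.24, FDR = 0.0194) and Lamb1 (-0.49 ± 0.12, FDR = 0.0156) were no longer called in males at P56, where 3 R237H and 3 WT rats were left, and both were still called in females.

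Most of the listed receptors of these proteins that had a symbol were increased in 3 of the 4 comparisons. The lists of related genes were matched by symbol, and symbols cover 3289 of the 23822 identifiers, taken from tables sorted by FDR, so the matched genes were in effect picked for change and their counts are not comparable with the background. Of 23 listed receptors 15 had a symbol. In P56 males 12 of them were increased and 0 decreased, with a median log2 fold change of 1.38. In females at P56, 13 were increased and only Itgb8 was decreased. At P21, 12 were increased in males and 7 in females, where 8 did not pass, with 0 decreased.

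Cd44, the receptor of osteopontin and hyaluronan, averaged 158 ± 34.1 CPM in R237H males and 8.94 ± 2.8 in WT males at P56 (log2 4.16 ± 0.27, FDR = 3.17e-06). It was raised by 2.88 ± 0.10 at P21, and the age difference in males passed (1.26 ± 0.28, FDR = 0.00452). The integrin subunits Itga5 (2.17 ± 0.31) and Itgb1 (1.54 ± 0.13), which together bind fibronectin, and Itgav (1.23 ± 0.20), which binds osteopontin and vitronectin, were all increased in males at P56. So were Itga6 (1.24 ± 0.14), a laminin receptor subunit, and the syndecan Sdc1 (3.10 ± 0.29). Itgav was thus raised in the rats in which the mRNA of its ligand Vtn was decreased.

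Partners and processing enzymes were counted in the same way. Of 20 listed, 10 had a symbol, of which 5 rose in P56 males, 7 in P56 females, 8 of 9 tested in P21 males and 5 in P21 females, with 0 decreased in any comparison. The median log2 fold change in males was 1.36 at P56 and 0.89 at P21. Plat, encoding tissue plasminogen activator, rose by 1.86 ± 0.17 in males at P56 (197 ± 50 against 55.1 ± 2.5 CPM), and Plau, encoding urokinase, rose by 1.42 ± 0.23. Mmp3, a protease of matrix proteins, and Loxl4, a lysyl oxidase of collagen cross-linking, were raised by 4.21 ± 0.49 and 3.91 ± 0.62, Mmp3 from a low level (1.35 against 0.0693 CPM).

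Several laminin chains rose in comparisons in which Lamb1 fell, and others did not. Of 26 other basement membrane genes 10 had a symbol, and 5 were increased and 0 decreased in P56 males (median log2 fold change 1.17). These were Lamc1, the gamma chain of most laminins (1.13 ± 0.13, FDR = 8.62e-05), Lama4 (1.33 ± 0.17), Lama5 (1.79 ± 0.33), Lamb2, the alternative beta chain (1.03 ± 0.24, FDR = 0.00707), and the laminin-binding linker Nid1 (1.22 ± 0.23). Of the other laminin chains, Lama3 (1.26 ± 0.50, FDR = 0.0678), Lama2 (-0.50 ± 0.42, FDR = 0.373) and Lamc3 (-0.89 ± 0.33, FDR = 0.0537) did not pass in these males. Lamb2 averaged 124 ± 13 CPM in R237H males against 61.8 ± 24.5 in WT males. In females at P56, 7 were increased and Lamc3, named here after its value was seen, was decreased (-1.08 ± 0.28, FDR = 0.00985). At P21, 5 were increased in males, and in females Lamc1 was increased and Lama2 decreased. Lama4 and Nid1 differed between the ages in males (1.15 ± 0.18 and 1.19 ± 0.24, FDR = 4.58e-04 and 0.00292) and were not called in males at P21.

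Other matricellular genes, of which 11 of 32 had a symbol, gave 7 increased and 2 decreased in P56 males (median 1.67). The counts were 8 and 2 for P56 females, 8 and 2 for P21 males and 6 and 1 for P21 females. Thbs4, a thrombospondin of injured tissue (4.62 ± 0.36, FDR = 8.76e-06), Fbln5, an elastin-binding fibulin (3.63 ± 0.36), the tenascin Tnn (3.09 ± 0.47) and Efemp2 (1.16 ± 0.15) were the increased genes with the smallest FDR in males at P56, and Thbs4 and Tnn were low in all rats (2.38 and 1.84 CPM in R237H males). The decreased genes were Mfge8, a bridging protein of phagocytosis (-1.59 ± 0.24, FDR = 5.98e-04), and Spock3, a relative of Sparc (-0.75 ± 0.15, FDR = 0.00258), both named after their values were seen. Vtn and Lamb1 were therefore not the sole secreted adhesion genes to fall.

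Genes of the hyaluronan-based matrix of the adult brain changed in both directions. Of 13 listed genes 8 had a symbol, and 5 of them were decreased and 2 increased in P56 males, with a median of -0.83. The link proteins Hapln4 (-1.68 ± 0.13, FDR = 8.32e-06), Hapln1 (-1.48 ± 0.12) and Hapln3 (-1.66 ± 0.19) and the proteoglycan Acan (-1.03 ± 0.13) fell, as did Bcan (-0.64 ± 0.15). Ncan, encoding neurocan, a proteoglycan that binds tenascin-C, rose (0.97 ± 0.21), and so did the hyaluronan synthase Has2 (1.84 ± 0.29). In females at P56, 4 were decreased and 2 increased. At P21, males had 5 decreased and 2 increased and females 3 and 1.

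**Figure D4:**
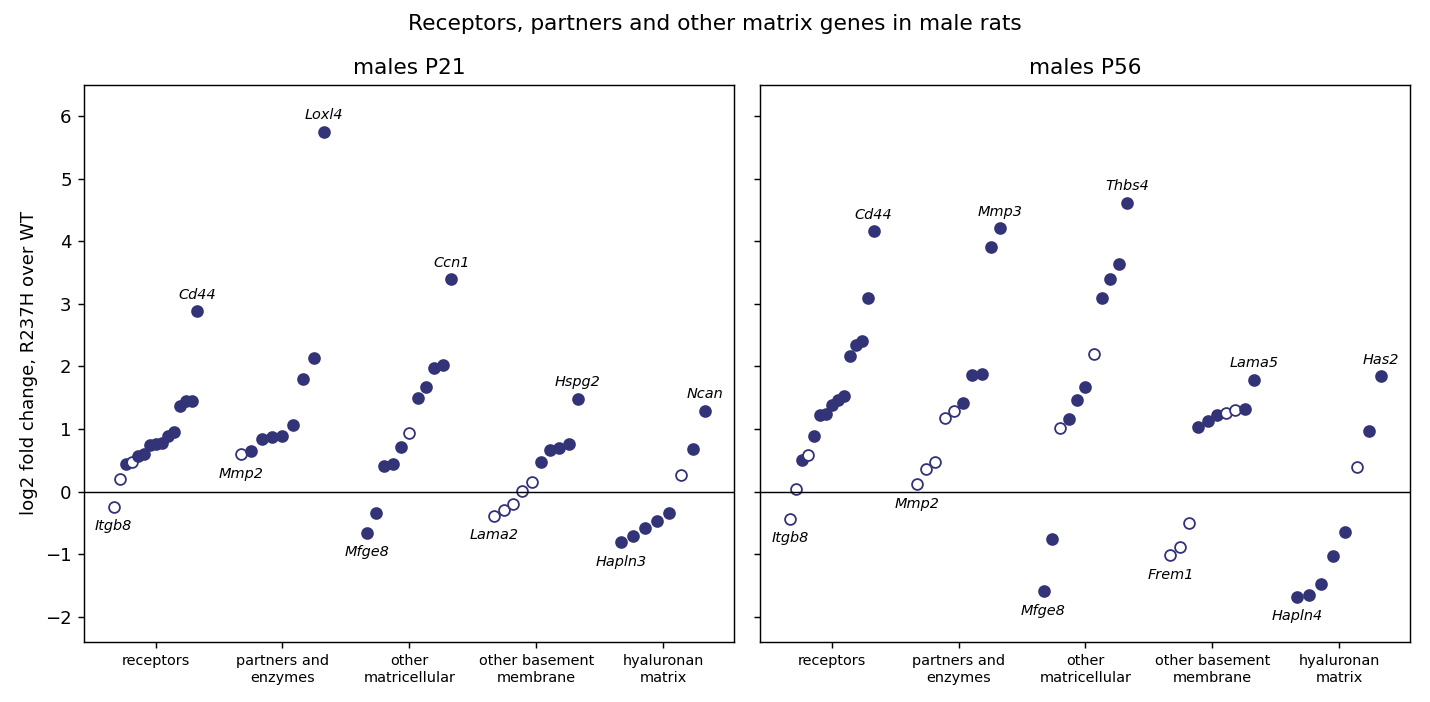
Log2 fold change of R237H over WT in males at P21 and P56 for the genes of 5 lists that had a symbol (filled, FDR under 0.01, open, not), with the lowest and highest of each list named. At P56 Cd44 leads the receptors at 4.16, Mmp3 the partners at 4.21 and Thbs4 the other matricellular genes at 4.62, while Hapln4 is lowest of the hyaluronan matrix at -1.68.

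Markers of other cell types moved with the members in some cases, and their part in the results was not tested. Summed microglial markers, 8 of 8 with a symbol and none at 0, ran from 896 to 1287 normalized CPM in R237H males and from 292 to 379 in WT males at P56, and from 670.3 to 802 and 314 to 325 at P21. Of these, 7 were increased in males at P56, among them Tyrobp (2.50 ± 0.23), while Tmem119 was not called (0.50 ± 0.26, FDR = 0.157). Summed astrocyte markers, 7 of 9 and none at 0, were 7343 to 9477 in R237H and 3708 to 5051 in WT males at P56, and Gfap, the mutated gene, was the sole one increased there (5549 against 784). Gja1, a gap junction protein (-1.16 ± 0.17, FDR = 5.38e-04), and Aldoc, a glycolytic enzyme (-0.93 ± 0.14, FDR = 6.14e-04), were decreased, and the median log2 fold change of the 7 was -0.57.

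Beside Vtn and Lamb1, which vascular cells express, the mural markers with a symbol, 4 of 10, summed to 306 to 430.2 normalized CPM in R237H males and 142 to 262 in WT males at P56. Of these, Tagln alone was increased (2.31 ± 0.30), 3 were not called, and the median log2 fold change was 0.20. Pdgfrb, a defining pericyte marker, was among those not called (-0.17 ± 0.11, FDR = 0.26, 48.3 against 55.1 CPM). Kdr, the sole endothelial marker of 10 with a symbol, was decreased in all 4 comparisons and ran from 8.41 to 14.1 in R237H and from 17.2 to 24.3 in WT males at P56. Fibroblast and leptomeningeal markers, 5 of 11, gave no call in males or females at P56. Rbfox3, the sole neuronal marker of 7 with a symbol, was decreased in males at P56 (log2 -1.05). It ran from 67.1 to 119 in R237H and from 133 to 249.5 in WT males there. It was not called in females at P56 or in either sex at P21. Erythroid markers, 3 of 4, summed to 19.1 to 37.7 in R237H and 209 to 500.1 in WT males at P56. In females of that age they summed to 22.5 to 24.9 and 119 to 231. In males at P21 the sums overlapped, at 296 to 359 and 299.6 to 363. Whether the erythroid sums bear on any member was not tested. Choroid plexus markers, 8 of 9, ranged from 3.17 to 2015 in WT males and from 5.59 to 229.9 in R237H males at P56, with 0 called in males. None of the 9 listed markers of infiltrating myeloid cells and lymphocytes had a symbol, so they were not analysed here.

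Among 2941 genes with a symbol and a mean TPM of at least 1, the ones with the most similar values over the 32 rats were found by the root mean square difference of log2(TPM + 0.1), each centred on WT rats of the same sex and age. Spp1 had no close neighbour. Among its nearest genes, Aspg and Hmox1 were at 0.70 and 0.71, and no gene was within 0.5. For Fn1, where 45 genes were within 0.5, the nearest were Gbp2 and Tmem26 at 0.36 and Cd68, a lysosomal protein of macrophages and microglia, at 0.38. For Tnc, where 26 genes were within that distance, they were the filamin Flnc at 0.31 and Fam167a and the amino acid transporter Slc1a5 at 0.32.

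The members of smaller change had many neighbours. Sparc lay closest to Cnppd1, Adipor1 and Snx33 at 0.12, 0.13 and 0.13, with 1173 genes within 0.5. Vtn lay closest to Mfap4, a microfibril-associated glycoprotein, at 0.21, then to Ccdc30 and Esyt3 at 0.24 and 0.26, with 723 genes within 0.5. Lamb1 lay closest to Cacna2d3, a calcium channel subunit, at 0.09, to Itpr1, the receptor for inositol trisphosphate, at 0.09, and to Ttc19 at 0.10, with 777 within 0.5. Small distances among genes that change little are common, so these neighbours are less distinct than those of Fn1 and Tnc.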

How the data were processed

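Hippocampal RNA of 32 rats was extracted with TRIzol and sequenced as stranded, polyA-selected libraries. Per the submitters' processing notes and the methods, the authors used bcl2fastq 2.20.0.422 for base calling, Skewer for trimming, STAR for alignment and RSEM for expression. The genome build is not given in the sources used here. The authors deposited expected counts per gene, in which reads that fit several genes are divided, and TPM values, which are scaled per library and transcript length. Expected counts, 5.68% of them not whole, were rounded. R237H was compared with WT within each sex and age by the quasi-likelihood F-test of edgeR 4.0.16 (R 4.3.3), with its default filter for low counts and TMM scaling. FDR values are Benjamini-Hochberg values over all genes tested, with a threshold of 0.01. Interactions were fitted over 16 rats. Normalized CPM are counts over TMM-scaled library sizes of all 32 rats. The median biological coefficient of variation was 8.94% to 17.3%.

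Symbols come from the study's supplementary tables and cover 3289 of 23822 identifiers (13.8%). The members and all gene lists were chosen with earlier results of these data known. The genes named are the 6 members, in each list the 4 with the smallest FDR in males at P56 plus direct partners of the members, and the 3 nearest genes of each member. A few genes that the rule would name are left out. Marker sums were planned in TPM and are given in normalized CPM because of the shift of TPM at P56. Alternatives were DESeq2 1.42.0, a likelihood-ratio test, RLE factors, other filters, an FDR under 0.05, one model of all rats, limma 3.58.1 on log2 TPM with 0.1 or 1 added, each rat left out in turn, and a replicate block by title number. The fits without libraries of more than 100 TPM of Ttr were added after seeing the data. Methods were tested on simulated data. Tables were made with Python 3.11.15 and pandas 2.3.3. The columns of the authors' own comparisons, fold changes and p-values, were not used.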

Additional observations from a re-analysis of the deposited data

Results flagged for a closer look

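In 42 sets of 4 or 5 rats (6 genes in 7 groups), 4 held a rat far from the others by Dixon's criterion, and chance alone flags about 1 in 20. Spp1 was 6.04 normalized CPM in WT female replicate 1 at P56, above the other 3 at 1.79 to 2.49. Vtn was 20.6 in WT male replicate 1 at P21, a library with Ttr over 100 TPM. Lamb1 was 46.5 in R237H female replicate 2 at P56 and 74.5 in WT female replicate 1 at P56, the rat that also stood apart for Spp1.

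The genotype effect differed between the ages in males for 2 members by a test of the difference itself. It was larger at P56 than at P21 for Spp1 by 3.29 on the log2 scale (edgeR FDR = 3.78e-04) and for Sparc by 0.68 (FDR = 0.00289). Both differences passed in 16 of 16 fits that left out 1 rat each. Age and collection cannot be told apart here.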

How the results depend on the processing

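The increases of Spp1, Fn1 and Tnc kept their direction and their side of the threshold in every alternative run, except that Fn1 lost its call in females at P21 with the replicate block (FDR = 0.021). Of 258 genotype results under other alternatives, 244 kept their side of the threshold, 10 were no longer called, 4 were newly called and 0 reversed. Of 192 with 1 rat left out, 183 kept theirs, 7 were lost, 2 were gained and 0 reversed. The number of decreased members in males at P56 (2) was 0 with log2(TPM + 1), 0 with log2(TPM + 0.1), 0 without the libraries over 100 TPM of Ttr, and 1 to 2 with each rat left out. In females at P56 it was 1 with either TPM scale. In males at P21 (1) it was 0 in one model of all 32 rats and 0 to 1 with each rat left out. The TPM alternatives used limma, so scale and test changed together, and RLE scaling in edgeR kept these calls. The fit without the Ttr libraries holds fewer rats. The cause of the losses was not tested.

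Members with an interaction of age and genotype in males (2) numbered 4 with the likelihood-ratio test, 5 at an FDR under 0.05, 3 with log2(TPM + 0.1), where Fn1 was added, and 3 in one model of all 32 rats, where Vtn was added. In females (0) they numbered 1 with the likelihood-ratio test, 1 in one model of all 32 rats and 2 at an FDR under 0.05. The Lamb1 interaction in males, -0.27 and not called, was 0.16 with log2(TPM + 0.1). Over all genes, decreased calls in males at P56 numbered 1677 in edgeR with TMM and 189 in limma with log2(TPM + 0.1), against 2531 and 3728 increased.

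Sample titles carry a number that some rats of both genotypes share. All males at P21 have the same number, so their correlations cannot tell whether the number marks a pairing. In the other comparisons, correlations ran from -0.02 to 0.47 in same-numbered pairs and from -0.31 to 0.31 in other pairs. The highest values, 0.47 and 0.39, were in same-numbered pairs. The labels do not say what the number marks, so it was not taken as a pairing, though a pairing is not excluded. With it as a replicate block, both sexes had 4 increased and 2 decreased members at P56, and P21 females had 2 increased ones. Males at P21 share 1 number, so no block could be fitted. WT Spp1 rests on as few as 33 counts.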
